A study of Mus musculus with 2 samples.

Results

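Acute phase proteins are plasma proteins whose production by the liver changes when tissue is injured or infected. The genes described here are 10 mouse genes of this class, the serum amyloid A genes *Saa1*, *Saa2*, *Saa3* and *Saa4*, the orosomucoid genes *Orm1*, *Orm2* and *Orm3*, haptoglobin (*Hp*), lipocalin 2 (*Lcn2*) and serum amyloid P component (*Apcs*). They were chosen by symbol, and the estimated counts of their 22 transcripts, out of 129299 in the deposited table, were summed per symbol. All 10 were listed among the 45777 genes, and all 10 were among the 15857 genes kept, those that reached 10 counts in either library.

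The livers came from C57BL/6 N mice on a high-fat diet (HFD), in both groups for 18 weeks from an age of 7 weeks. Adeno-associated virus (AAV) coding for GFP, the control, or for the long noncoding RNA *Wee1-AS* was given into the retro-orbital sinus at week 13 of the diet, 5 weeks before the end, per the methods of the study. The vector was an AAV9 with the CMV promoter, which is not restricted to hepatocytes. Poly-A RNA of 1 liver library per group was analysed here, although the series was described as having more liver samples than these 2. Whether a library holds 1 mouse or a pool is not given in the sources used here. With 1 library per group there is no replicate check of the differences. The spread between mice is unknown, and p-values are not given. *Wee1-AS* itself was not analysed here.

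In the acute phase response, macrophages release cytokines such as IL-1, TNF and IL-6. IL-6 acts on hepatocytes through its receptor, the shared subunit gp130, JAK kinases and the transcription factor STAT3, while IL-1 acts through NF-kappa B and C/EBP factors, and SOCS proteins end the signal. Genes such as *Saa1* and *Saa2* answer IL-1 and IL-6 together, and *Saa4* is known as the constitutive form that inflammation changes little. Haptoglobin captures free haemoglobin, lipocalin 2 withholds iron-carrying siderophores from bacteria, the orosomucoids are lipid-binding and drug-binding plasma proteins, and serum amyloid P is a pentraxin, of which C-reactive protein is another.

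The promoters of *Saa1*, *Saa2*, *Saa4*, *Orm2* and *Orm3* are printed so that neighbours can be compared. In the main processing, the ratios between the libraries differed among the 3 Saa genes, and those of *Orm2* and *Orm3* were alike. With the most abundant transcript alone, *Orm2* and *Orm3* were less alike, at log2 ratios of -0.44 and -0.82. With trends in GC content and transcript length across all genes removed, *Saa1* and *Saa2* lay closer together, at 0.71 and 0.60. In mm10, *Saa3*, *Saa4*, *Saa1* and *Saa2* lie in this order within 42.3 kb of chromosome 7, with *Saa2* on the plus strand and the others on the minus strand, and *Orm1*, *Orm3* and *Orm2* lie on the plus strand within 21.3 kb of chromosome 4. The sequences are the 250 bases upstream of the RefSeq start (RefSeq, GRCm38.p6, the assembly of mm10), 5′ to 3′ on the strand of the gene, and were found for 8 of the 10 genes, all but *Orm1* and *Hp*. They are chr7:46742981-46743230 on the minus strand, chr7:46751583-46751832 on the plus strand, chr7:46732604-46732853 on the minus strand, chr4:63362199-63362448 on the plus strand and chr4:63355908-63356157 on the plus strand. Capitals mark letters of a C/EBP motif (TTGCNNAA or its reverse complement TTNNGCAA) or of a TATA box (TATAAA).
Saa1: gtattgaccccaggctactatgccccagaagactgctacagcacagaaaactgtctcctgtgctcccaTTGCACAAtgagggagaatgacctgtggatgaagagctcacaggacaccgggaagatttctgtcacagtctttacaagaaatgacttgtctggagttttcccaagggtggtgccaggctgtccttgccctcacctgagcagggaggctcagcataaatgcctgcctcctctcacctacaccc
Saa2: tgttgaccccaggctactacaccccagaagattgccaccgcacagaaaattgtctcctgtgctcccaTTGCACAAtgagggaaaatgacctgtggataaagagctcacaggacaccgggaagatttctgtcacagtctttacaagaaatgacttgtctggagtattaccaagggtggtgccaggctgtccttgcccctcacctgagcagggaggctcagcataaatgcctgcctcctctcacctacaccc
Saa4: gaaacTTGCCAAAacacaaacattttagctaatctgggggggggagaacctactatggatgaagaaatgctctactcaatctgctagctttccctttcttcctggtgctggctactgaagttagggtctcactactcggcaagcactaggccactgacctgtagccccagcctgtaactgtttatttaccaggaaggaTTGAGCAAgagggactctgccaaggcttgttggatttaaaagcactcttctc
Orm2: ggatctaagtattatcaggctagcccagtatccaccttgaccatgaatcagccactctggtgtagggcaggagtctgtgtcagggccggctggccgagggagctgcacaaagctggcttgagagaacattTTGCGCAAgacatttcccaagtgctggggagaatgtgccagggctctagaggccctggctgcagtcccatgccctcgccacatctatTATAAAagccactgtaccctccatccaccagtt
Orm3: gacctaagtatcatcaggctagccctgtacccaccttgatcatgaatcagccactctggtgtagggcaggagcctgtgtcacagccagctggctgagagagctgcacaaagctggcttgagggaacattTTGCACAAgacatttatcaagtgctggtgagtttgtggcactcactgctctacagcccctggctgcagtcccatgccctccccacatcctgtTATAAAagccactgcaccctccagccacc

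Over 249 aligned bases, the upstream sequences of *Saa1* and *Saa2* were 95.6% identical, and both held the same C/EBP letters TTGCACAA, which begin 182 and 183 bases upstream of the start. The upstream sequence of *Saa4* was 62.4% identical to that of *Saa1* over 202 aligned bases, with C/EBP letters at 2 other places, 245 and 52 bases upstream. Those of *Orm2* and *Orm3* were 89.0% identical over 245 aligned bases, with C/EBP letters 120 and 121 bases upstream and a TATA box 33 and 29 bases upstream. On both strands, the C/EBP motif was found in 7 of the 8 upstream sequences, all but that of *Apcs*, against 9.56% of 32851 RefSeq promoters of the same length. The STAT motif (TTCNNNGAA) and the core of the IL-6 response element (CTGGGAA) were found in *Apcs* alone of the 8, against 7.02% and 9.10% of all promoters. The kappa B core (GGANNTTCC) was found in 0 of the 8 and in 3.59% of all promoters, and the TATA box in 2 of the 8 and in 12.4%. These counts take the similar sequences of *Saa1* and *Saa2*, and of *Orm2* and *Orm3*, as separate, although they are not independent of each other. A match describes letters and shows no binding, and a motif that was not found says nothing about its factor. The upstream sequences of *Saa1*, *Saa3* and *Orm3* overlap predicted transcripts that start farther upstream. For *Saa3* and *Orm3* the transcript with the most counts is among them, so that the marked TATA box of *Orm3* lies within its span. The start used for *Orm3* is close to that of its curated transcript, which was at 0 in both libraries.

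The libraries held 55466182 estimated counts with AAV-GFP and 48079335 with AAV-*Wee1-AS*, and the TMM factors of edgeR were 1.02 and 0.980. The hepatocyte markers were abundant in both libraries, with *Alb* at 37459 and 53289 TPM, a level per transcript length whose sum is equal in both libraries, and the 11 markers together at 78815 and 88740 TPM. Of the 15857 genes, 31.0% differed past 2-fold between the libraries (above 2 or below 0.5 as a ratio), 22.2% on the higher side with AAV-*Wee1-AS* and 8.71% on the lower. The fold limits are those of the study, which set a limit on the p-value as well that was not used here. The log2 ratios of the middle 95% of genes spanned -1.82 to 2.52, with a median of -0.02.

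Most of the acute phase genes were abundant in both libraries, *Saa3* and *Orm3* less so, and the 10 genes did not differ in a common direction. In what follows, the value with AAV-GFP is given before that with AAV-*Wee1-AS*. With AAV-*Wee1-AS*, *Saa1*, *Saa2*, *Saa4*, *Orm1* and *Apcs* had a higher TMM-scaled count and *Saa3*, *Orm2*, *Orm3*, *Hp* and *Lcn2* a lower one. Their median log2 ratio (AAV-*Wee1-AS* over AAV-GFP, prior count of 2) was -0.13. *Saa4* was the 1 member of 10 past 2-fold, beside 31.0% of all genes. Among the 2397 genes with a mean of at least 50 scaled CPM (TMM-scaled counts relative to library size), of which 8 are members, 14.7% were past 2-fold. For all 10 members, the exact (Clopper-Pearson) 95% counting interval of the ratio lay on one side of equal, beside 77.1% of all genes. With 1 library per group, such an interval reflects counting error alone. It may be too narrow even for that, because PCR copies are not separate molecules. In whole liver, fewer cells of a type and less RNA per cell cannot be told apart.

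**Figure D1:**
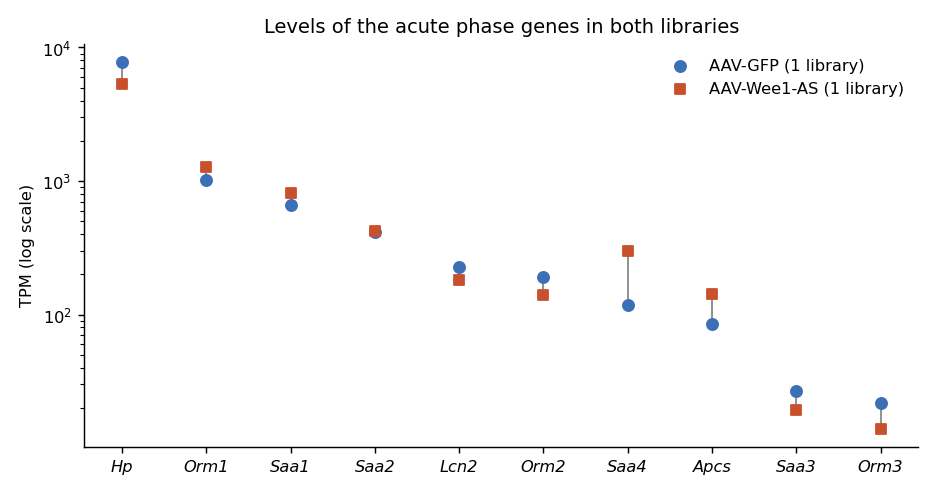
Level of each acute phase gene in TPM, on a log scale, in the AAV-GFP library (circles) and the AAV-*Wee1-AS* library (squares), 1 library per group and so no error bars. The genes are ordered by their level with AAV-GFP. *Hp* stands highest in both libraries, and *Saa4* shows the widest gap, from 119 to 298 TPM.

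*Hp* (mm10, chromosome 8, 109575128 to 109579172, minus strand, 5 exons in its main transcript) was the most abundant member. It had 340818 counts with AAV-GFP and 200321 with AAV-*Wee1-AS*, or 7747 and 5359 TPM, the rank 18 and the rank 29 of all genes. It was lower with AAV-*Wee1-AS*, by a log2 ratio of -0.50 (95% counting interval -0.51 to -0.50), and higher, by 0.19, once the trends with GC content and length across all genes were removed. It held 73.6% of the summed TPM of the members with AAV-GFP and 61.9% with AAV-*Wee1-AS*. All 10 members together had 10520 and 8665 TPM, a log2 ratio of their summed counts of -0.30, whereas the members without *Hp* had 2773 and 3306 TPM, a log2 ratio of 0.40. The direction of the sum is thus that of 1 gene.

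Below *Hp*, the order of the levels with AAV-GFP was *Orm1*, *Saa1*, *Saa2*, *Lcn2*, *Orm2*, *Saa4*, *Apcs*, *Saa3* and *Orm3*. With AAV-*Wee1-AS*, *Saa4* stood above *Lcn2* and *Orm2*, and *Apcs* stood above *Orm2*. The other genes kept their order. *Apcs* and *Orm2* were close neighbours with AAV-*Wee1-AS*, at 143 and 139 TPM, as were *Lcn2* and *Orm2* with AAV-GFP, at 228 and 192 TPM. No spread between mice is at hand to separate such neighbours.

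*Saa4* codes for the constitutive serum amyloid A, a protein of high-density lipoproteins. It has 1 transcript in the table (chromosome 7, 46727992 to 46732603, minus strand, 4 exons). It had 8215 counts with AAV-GFP and 17479 with AAV-*Wee1-AS*, or 119 and 298 TPM. This is a 2.55-fold higher scaled count, a log2 ratio of 1.35 (1.32 to 1.39). Under the 11 alternatives of processing its log2 ratio lay between 1.15 and 1.37, and it was past 2-fold in each of them. Its value is inside the middle 95% of genes of like GC content (48.6% to 50.4%), which spanned -1.62 to 2.19.

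*Saa1* and *Saa2* code for the inducible serum amyloid A proteins, which replace apolipoprotein A-I on high-density lipoproteins during inflammation. *Saa1* (chromosome 7, 46740497 to 46743181) had 13642 and 14185 counts, or 658 and 809 TPM, with AAV-GFP and AAV-*Wee1-AS*. Its log2 ratio was 0.32 (0.29 to 0.35). *Saa2* (chromosome 7, 46751833 to 46754314) had 8417 and 7265 counts, or 418 and 419 TPM. Its log2 ratio was 0.05 (0.01 to 0.10), the smallest difference of the 10 members, and it turned to the lower side under 4 of the 11 alternatives, with -0.16 as its lowest value. The transcripts of *Saa1* and *Saa2* are 94.4% identical over 606 aligned bases, so that estimated counts may be split between them, although no stretch of 100 bases is shared exactly. Their summed counts do not depend on that split and gave a log2 ratio of 0.22 (0.20 to 0.25).

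*Saa3* (chromosome 7, 46711998 to 46719615), a form made in macrophages and adipose tissue as well as in liver, was low beside its neighbours. It had 606 and 380 counts, or 26.8 and 19.4 TPM, and a log2 ratio of -0.41 (-0.60 to -0.22). A gene that overlaps it, *Gm31882*, was at 0 in both libraries. Of the summed TPM of the 4 Saa genes, *Saa4* held 9.72% with AAV-GFP and 19.3% with AAV-*Wee1-AS*, while *Saa1* held 53.9% and 52.3%, *Saa2* 34.2% and 27.1%, and *Saa3* 2.20% and 1.26%. The neighbours on chromosome 7 thus differed in size, and in direction as well except with the GC content and length trends removed, where *Saa3* was at 0.03 and the others were higher.

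The orosomucoids, or alpha-1-acid glycoproteins, also did not go one way. *Orm1* (chromosome 4, 63344556 to 63348163) had 26276 and 27878 counts, or 1024 and 1282 TPM, and a log2 ratio of 0.35 (0.32 to 0.37). *Orm2* (63362449 to 63365877) had 4882 and 3003 counts, or 192 and 139 TPM. Its log2 ratio was -0.44 (-0.50 to -0.37). *Orm3* (63356069 to 63359511) had 673 and 416 counts, or 21.9 and 14.0 TPM, and a log2 ratio of -0.43 (-0.61 to -0.25). *Orm1* was thus higher with AAV-*Wee1-AS* while the scaled counts of its paralogs were lower, and none of the 11 alternatives turned any of these directions. *Orm1* held 82.8% of the TPM of the family with AAV-GFP and 89.3% with AAV-*Wee1-AS*. The transcripts of *Orm1* and *Orm2* are 91.0% identical and share 47 of 676 stretches of 100 bases exactly, so their separate values are less certain than the sum of the family, whose log2 ratio was 0.24 (0.22 to 0.26). The predicted gene *LOC115489999* overlaps 52 bases of *Orm1* and had 46 and 57 counts.

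*Lcn2* (chromosome 2, 32384637 to 32387739) had 6416 and 4332 counts, or 228 and 182 TPM, and a log2 ratio of -0.30 (-0.36 to -0.25), which turned to 0.28 with the trends removed. Lipocalin 2 is also stored in neutrophil granules. Of 12 neutrophil markers, 9 passed the count filter, 3 of them higher and 6 lower with AAV-*Wee1-AS*. Of the lower ones, *S100a9*, *Retnlg* and *Elane* were past 2-fold, 3 of 9 beside 8.71% of all genes on the lower side, although the counting interval of *Elane* reached equal. Once the trends were removed, 2 were higher and 7 lower, and *S100a9* (-1.78), *Retnlg* (-1.70) and *Camp* (1.50) were past 2-fold, beside 15.0% of all genes. *Camp* had only 7 and 12 counts, and the counting interval of its ratio before that removal (-0.42 to 2.63) included equal. *Ly6g* was at 0 in both libraries. Their summed counts were 486 and 273, far below those of *Lcn2*, and *S100a9* had 116 and 38. The part of neutrophils in the *Lcn2* value was not tested.

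*Apcs* (chromosome 1, 172893961 to 172895054), which binds amyloid fibrils and chromatin, had 2773 and 3928 counts, or 85.6 and 143 TPM. Its log2 ratio of 0.77 (0.70 to 0.84), a 1.70-fold higher scaled count, came after that of *Saa4* among the higher members. With a GC content of 43.8% it is the member poorest in G and C, and genes of like GC content (42.2% to 44.6%) had a median log2 ratio of 1.13. With the trends removed, *Apcs* was at -0.05.

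**Figure D2:**
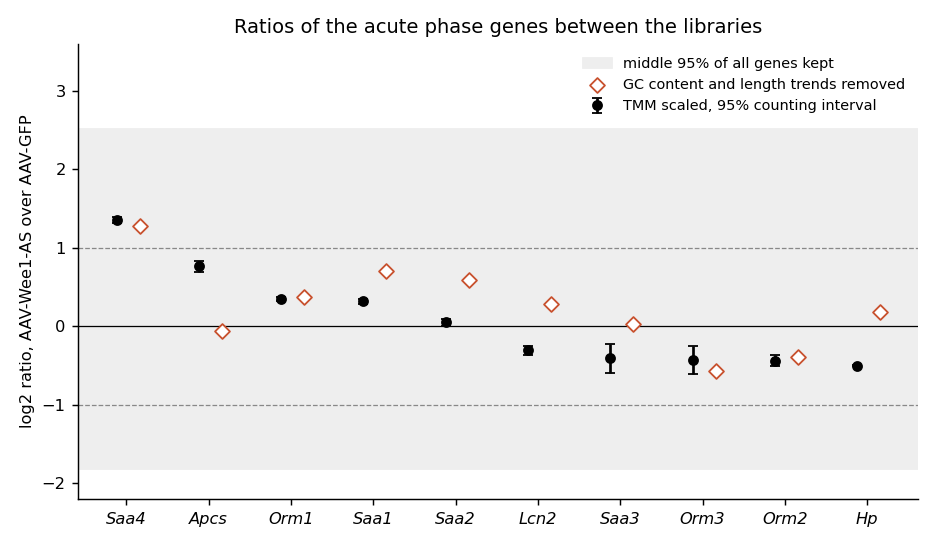
Log2 ratio of AAV-*Wee1-AS* over AAV-GFP for each acute phase gene, as TMM-scaled counts with the 95% counting interval (circles) and after removal of the trends with GC content and length (diamonds). Dashed lines mark 2-fold and the band is the middle 95% of all genes kept (-1.82 to 2.52). *Saa4* alone stands past 2-fold, in both forms, while *Apcs*, *Lcn2*, *Saa3* and *Hp* change sides once the trends are removed.

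The ratio between the libraries went with the GC content of the transcripts across all genes, with a Spearman coefficient of -0.69 over 14995 genes, and with transcript length, with a coefficient of 0.34. Genes within 2 libraries are not independent replicates, and these coefficients describe these libraries only. After both trends had been removed by lowess fits, 15.0% of genes were past 2-fold, and *Saa4* remained so at 1.28. *Orm1* moved little, to 0.37, and so did *Orm2*, to -0.39. *Saa1* moved to 0.71 and *Saa2* to 0.60, and *Orm3* to -0.57. *Hp*, with the highest GC content of the members (56.2%), moved from the lower to the higher side (0.19), as did *Lcn2* (0.28) and *Saa3* (0.03), whereas *Apcs* moved from the higher side to just below equal. The median of the members moved to 0.23, with 7 of 10 on the higher side. The directions of *Saa1*, *Saa2*, *Saa4*, *Orm1*, *Orm2* and *Orm3* were therefore the same with and without the trends, although the sizes for *Saa1* and *Saa2* were not, and the directions of *Hp*, *Lcn2*, *Saa3* and *Apcs* turned. Whether the trend has a technical or a biological origin was not tested.

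**Figure D3:**
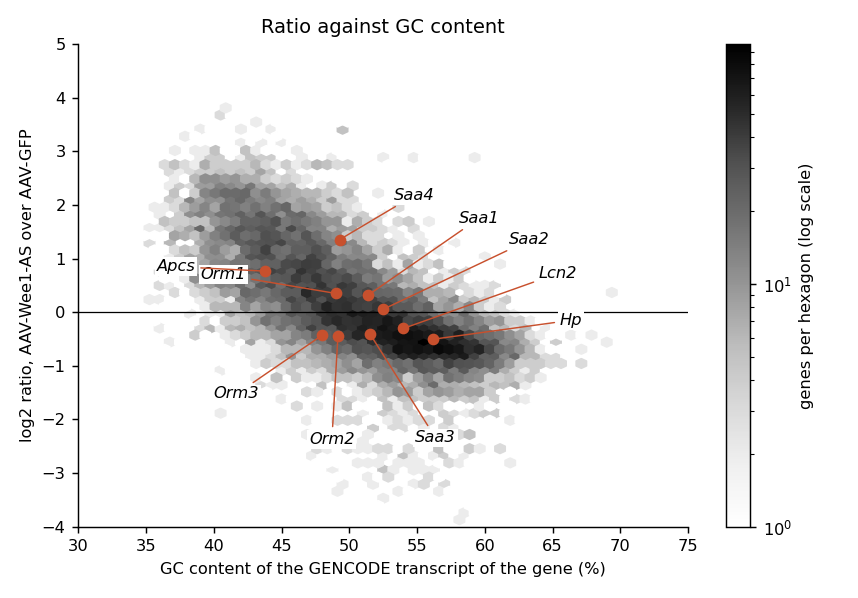
Log2 ratio of AAV-*Wee1-AS* over AAV-GFP against the GC content of the transcript, as the number of genes per hexagon (log scale), with the acute phase genes as named points. Genes beyond the drawn range are not shown. The cloud falls from left to right (Spearman coefficient -0.69), with *Apcs* at its left, *Hp* at its right and *Saa4* in its upper part, at 1.35.

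*Saa1*, *Saa2*, *Saa3*, *Orm3* and *Hp* have more than 1 transcript in the table. Counts of overlapping transcripts are estimates, since most of their sequence is shared. The 2 curated transcripts of *Hp* had 306183 and 34635 counts with AAV-GFP and 187538 and 12783 with AAV-*Wee1-AS*. The shorter and rarer of them (NM_001329965) was lower by more than the other, with log2 ratios of -1.17 and -0.44, and its share of the *Hp* counts was 10.2% with AAV-GFP and 6.38% with AAV-*Wee1-AS*. For *Saa1*, the most abundant transcript (NM_001357493) had 8420 and 8934 counts, and the next (NM_009117) 4240 and 4282, with log2 ratios of 0.35 and 0.28. For *Saa2*, the most abundant transcript (NM_011314) had 5551 and 4270 counts, a log2 ratio of -0.11, whereas a predicted one (XM_011250828) had 105 and 534, a log2 ratio of 2.59 (2.31 to 2.93). This predicted transcript held 1.25% of the *Saa2* counts with AAV-GFP and 7.35% with AAV-*Wee1-AS*. For *Orm3*, the counts lay on predicted transcripts, of which the main one (XM_006537670) had 581 and 274 counts, a log2 ratio of -0.82 (-1.03 to -0.61), and the next (XM_006537667) had 77 and 101, while the curated NM_013623 was at 0 in both libraries. For *Saa3*, a predicted transcript (XM_030242257) with 422 and 283 counts exceeded the curated one (NM_011315) with 184 and 97. The ratio of a gene therefore hides unequal ratios of its transcripts most of all for *Saa2*, *Orm3* and *Hp*.

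**Figure D4:**
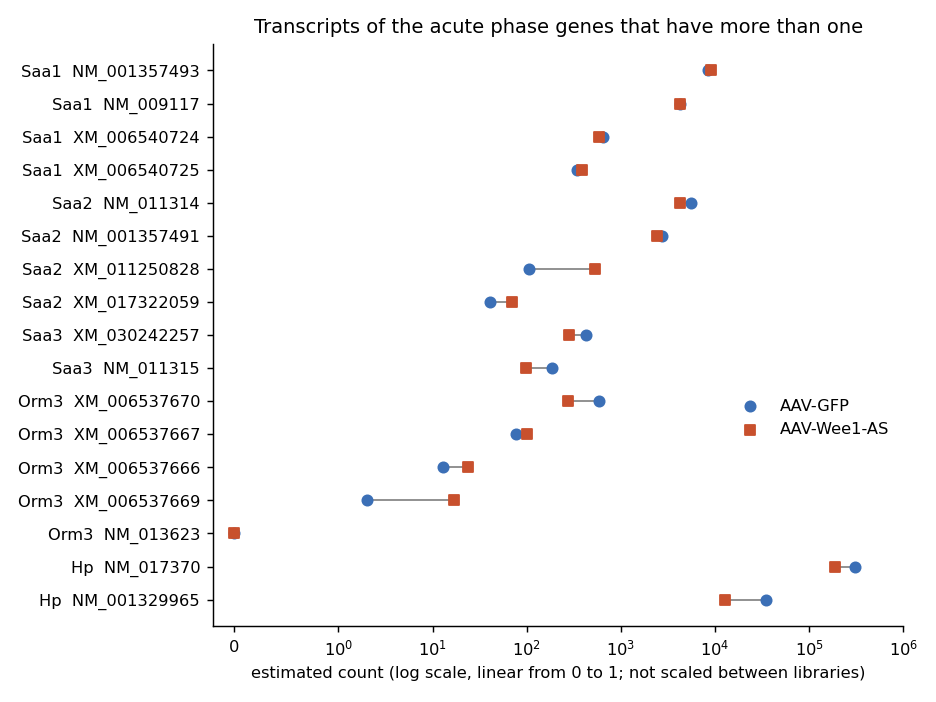
Estimated counts of each transcript of *Saa1*, *Saa2*, *Saa3*, *Orm3* and *Hp* in the AAV-GFP library (circles) and the AAV-*Wee1-AS* library (squares), on a log scale that is linear from 0 to 1, not scaled between libraries. The widest gap among transcripts with at least 100 counts in a library is that of the predicted *Saa2* transcript with 105 and 534 counts.

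The cytokines that drive the acute phase response were low or at 0. Of 11 ligands, *Il6*, *Il11*, *Il22* and *Il17a* were listed at 0 in both libraries and 6 passed the count filter. Of these 6, 2 were past 2-fold, *Il1a* and *Lif*, beside 31.0% of all genes. *Il1b* had 62 and 31 counts and *Tnf* 17 and 19, with log2 ratios of -0.70 (-1.41 to -0.09) and 0.38 (-0.60 to 1.46). *Il1a* had 72 and 159 counts, a log2 ratio of 1.38 that was 0.17 with the trends removed. *Lif* had 12 and 0 counts. The ligand with the most counts was *Ctf1*, with 397 and 202. Its log2 ratio was -0.71 (-0.96 to -0.46), and -0.05 with the trends removed. After removal of the trends, *Il1b* was at -1.17 and *Tnf* at 0.74, and 3 of the 6 ligands were past 2-fold, *Il1b*, *Lif* and *Clcf1* (1.02), beside 15.0% of all genes. The value of *Lif* rests on 0 counts with AAV-*Wee1-AS*. *Clcf1* had 16 and 18 counts, and a log2 ratio of 0.39 (-0.62 to 1.50) before that removal. The counting intervals of *Tnf* and *Clcf1* included equal, so their ratios were within counting error.

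The receptors and kinases that carry these signals into the cell had mixed ratios, 10 higher and 8 lower (12 and 6 with the trends removed). Past 2-fold were 6 of 18, all 6 higher, a share near that of all genes (31.0%, with 22.2% on the higher side). *Tnfrsf1a* had the lowest ratio of the list, with 9619 and 4431 counts (-0.85, and -0.26 with the trends removed). *Jak2*, a kinase of the gp130 receptors, had 150 and 681 counts and a log2 ratio of 2.43. *Lifr*, the receptor of LIF, had 1892 and 4589 counts (1.54), and *Il1rap*, the partner chain of the IL-1 receptor, 2300 and 5429 (1.50). *Il1r1*, the IL-1 receptor itself, had 585 and 1243 counts (1.35). *Il6st*, which codes for gp130, had 3680 and 7118 counts (1.21), and the IL-6 receptor *Il6ra* 1126 and 1571 (0.74). *Traf6*, an adaptor of IL-1 signalling, was at 1.11. With the GC content and length trends removed, 2 of the 18 were past 2-fold, beside 15.0% of all genes, *Jak2* at 1.24 and *Lifr* at 1.07, while *Il1rap* was at 0.31, *Il6st* at 0.21 and *Il1r1* at 0.04.

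Of 16 transcription factors of the response, 1 was past 2-fold higher and 3 lower, beside 22.2% and 8.71% of all genes. Their median log2 ratio was -0.37, with 5 higher and 11 lower, and turned to 0.14 with the trends removed, with 11 higher and 5 lower. *Nr3c1*, the glucocorticoid receptor, had 671 and 3025 counts and a log2 ratio of 2.43, and 0.74 with the trends removed. *Relb*, a subunit of NF-kappa B, had 337 and 91 counts and a log2 ratio of -1.61. The C/EBP factors *Cebpd*, with 520 and 191 counts, and *Cebpb*, with 3394 and 1777, had log2 ratios of -1.17 and -0.67, and *Nfkb2*, another NF-kappa B subunit, was at -1.14. *Stat3* had 6657 and 5906 counts, a log2 ratio of 0.09 (0.04 to 0.14). The NF-kappa B subunits *Nfkb1* and *Rela* had log2 ratios of 0.13 and -0.79. With the trends removed, *Cebpd* was at -1.14, *Cebpb* at -0.03, *Relb* at -0.87 and *Nfkb2* at -0.49, and 1 of the 16 was past 2-fold, beside 15.0% of all genes. Of the 11 feedback inhibitors, *Nfkbiz*, with 113 and 281 counts, was the 1 past 2-fold (1.56), beside 31.0% of all genes. With the trends removed, *Nfkbiz* was at 1.35 and again the 1 past 2-fold, beside 15.0%. The count of feedback inhibitors past 2-fold was 2 under scaling by the upper quartile and 5 with the most abundant transcript alone. *Socs3*, which ends IL-6 signalling and is itself a STAT3 target, had 693 and 551 counts. Its log2 ratio of -0.07 (-0.23 to 0.10) turned to 0.61 with the trends removed. The median of the feedback inhibitors likewise turned from -0.36, with 3 higher and 8 lower, to 0.15, with 8 higher and 3 lower.

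Of 17 receptors and ligands of the member proteins past the count filter, 6 were higher and 11 lower, and 3 and 14 with the trends removed. Past 2-fold were 3 of the 17, all 3 higher, beside 31.0% of all genes, and 3 with the trends removed, beside 15.0%. Among the latter, *Lrp2* (40 and 21 counts, -1.68) and *Fpr2* (29 and 20 counts, -1.02) were lower. Both were named after their values were seen, and their counting intervals included equal. *Cd163*, the macrophage receptor that takes up haptoglobin bound to haemoglobin, had 231 and 1254 counts and a log2 ratio of 2.69 (2.50 to 2.91), and 2.18 with the trends removed. It was thus higher with AAV-*Wee1-AS* while *Hp* had the lower scaled count, although the *Hp* value turned without the trends. *Tlr4*, with 34 and 86 counts, had a log2 ratio of 1.54, and of -0.02 with the trends removed. Of 12 macrophage and Kupffer cell markers, *Marco*, *Vsig4* and *Timd4* were higher past 2-fold and *Gpnmb* and *Trem2* lower, at -3.44 and -2.08, which is 5 of 12 beside 31.0% of all genes. With the trends removed, *Marco* was at 2.15, *Gpnmb* at -3.65 and *Trem2* at -1.31, while *Vsig4* at 0.79 and *Timd4* at 0.58 were no longer past 2-fold, which left 3 of 12 beside 15.0% of all genes. The summed level of the 12 markers was 516 and 410 TPM, and its part in the values of *Saa3* and *Cd163* was not tested.

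The other acute phase genes of the liver also held no common direction. Of 29 other positive acute phase genes, 19 were higher and 10 lower (16 and 13 with the trends removed), with a median log2 ratio of 0.35 (0.08 with the trends removed). Past 2-fold were 6 of the 29, beside 31.0% of all genes, and 7 with the trends removed, beside 15.0%. *Fgl1*, a fibrinogen-like protein of hepatocytes, had 2351 and 17536 counts and a log2 ratio of 3.16 (3.10 to 3.23), and 2.24 with the trends removed. *F8*, the coagulation factor VIII gene, was at 1.58 and *Nnmt*, nicotinamide N-methyltransferase, at 1.12, with *Cd14*, the lipopolysaccharide co-receptor, at -1.43. With the trends removed, *F8* was at -0.46, *Nnmt* at 1.36 and *Cd14* at -1.01. *A2m* (31 and 11 counts) and *Il1rn* (600 and 246), named after their values were seen, were also past 2-fold, at -1.11 and -1.02. Their counting intervals, -2.37 to -0.20 and -1.24 to -0.81, were not wholly past 2-fold. With the trends removed they were at -1.52 and -1.61. There *Mt1* (1.455) and *Mt2* (1.18), named in the same way, were past 2-fold on the higher side. Of 16 negative acute phase genes, whose products fall in inflammation, 7 were higher and 9 lower, also with the trends removed, with a median of -0.15. *Apoa4*, a lipoprotein component, was the lowest of them, with 335069 and 44701 counts and a log2 ratio of -2.64 (-2.66 to -2.63), and *Serpina7*, thyroxine-binding globulin, the highest, at 1.20. With the trends removed, *Apoa4* was at -1.90 and *Serpina7* at -0.18.

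**Figure D5:**
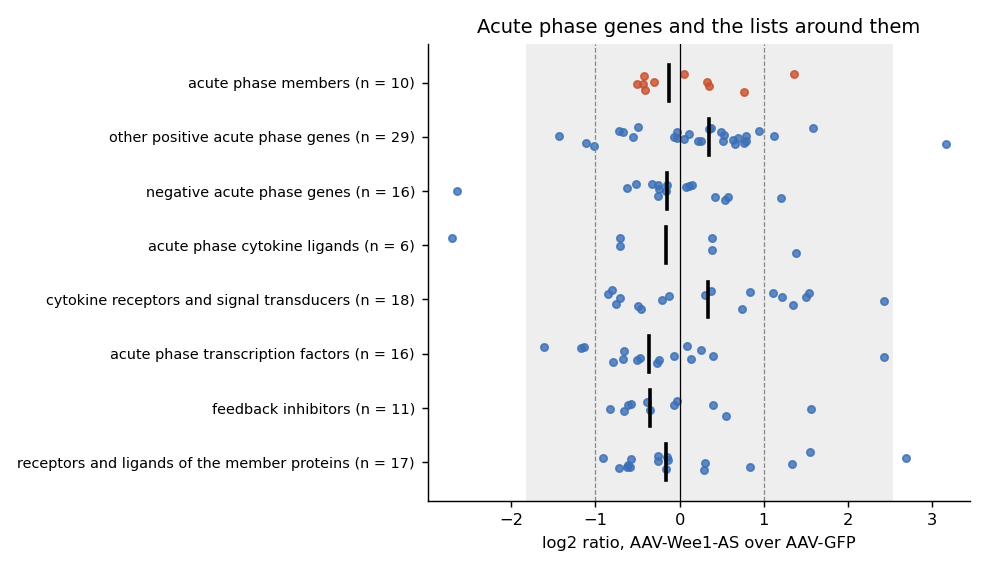
Log2 ratio of AAV-*Wee1-AS* over AAV-GFP for the acute phase members and 7 lists of genes around them, 1 point per gene past the count filter, with the median of each list as a bar, 2-fold as dashed lines and the middle 95% of all genes kept as the band. The medians lie between -0.37 and 0.35, and *Fgl1* (3.16), *Cd163* (2.69) and *Apoa4* (-2.64) are among the points beyond the band.

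Markers of other cell types of the liver, taken as lists, are given for the comparison of tissue make-up. Of 8 stellate cell and fibroblast markers, *Rgs5* (1.58), *Hgf* (1.52) and *Lrat* (1.46) exceeded 2-fold on the higher side and *Pdgfrb* (-1.09) on the lower, beside 22.2% and 8.71% of all genes. Without the trends, these 4 were short of 2-fold, at 0.10, 0.74, -0.08 and -0.92, while *Lum* passed it at -1.48 (from -0.27), 1 of 8 beside 15.0% of all genes, and the median of the list turned from 0.29 to -0.15. Of the 7 endothelial and 5 cholangiocyte markers past the count filter, 0 were past 2-fold, beside 31.0% of all genes. With the most abundant transcript alone, 1 endothelial marker was. Of 6 adipocyte markers, *Plin1* and *Lep* were at 0 in both libraries and *Adipoq* had 2 counts in each. *Lipe* (1417 and 1433 counts), *Cfd* (492 and 431) and *Fabp4* (399 and 408) passed the count filter, all 3 short of 2-fold. Of the hepatocyte markers, *Apob* (1.82) and *Cps1* (1.21) were past 2-fold, 2 of 11 beside 31.0% of all genes. With the trends removed neither was, at -0.03 and 0.32, while *Ttr* passed it at -1.05 (from -0.62), 1 of 11 beside 15.0%. How far the make-up of the livers bears on the acute phase genes was not tested.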

How the data were processed

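Poly-A RNA was sequenced for the 2 liver libraries from stranded libraries as paired reads of 100 bases. The submitters' processing notes name Trimmomatic 0.38, HISAT2 2.1.0, SAMtools 1.9, StringTie 2.1.3b and mm10. Which step used which tool, and whether counting used strand, is not given in the sources used here. For each RefSeq transcript the authors deposited an estimated count per library, which is not normalized and is shared out between overlapping transcripts. The deposited FPKM values are counts per transcript length scaled to the library, and the deposited TPM values are the same scaled to an equal sum. No column of the authors' own comparisons was used.

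Estimated counts were summed per gene symbol, and a gene was kept if either library reached 10 counts. Libraries were scaled by TMM (edgeR 4.0.16, R 4.3.3), and log2 ratios were taken with a prior count of 2. The exact 95% interval of a ratio came from the 2 counts of a gene. A library with 3 counts or fewer was taken as being at the floor, and no fold against it is given. There is 1 library per group, so no test was run. GC content and length came from GENCODE M21 transcripts (14995 genes, 94.6%), and their trends were removed in 5 cycles of lowess (span 0.3). Identities between transcripts and between upstream sequences came from pairwise alignment (Biopython 1.88). Python 3.11.15 with numpy 2.4.6, pandas 2.3.3, scipy 1.17.1, statsmodels 0.14.6 and matplotlib 3.10.9 was used. The scaling, the log2 ratios and the counting intervals were tested on simulated counts without added trends in GC content or length. The removal of the trends, the alignments and the motif search were not tested in this way.

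The members, the lists and the marker lists were chosen with earlier results of these data known. Named were all members, of each list up to 4 genes whose interval lay wholly past 2-fold in order of size, and in addition *Il6*, *Il1b*, *Tnf*, *Il6ra*, *Il6st*, *Il1r1*, *Stat3*, *Socs3*, *Cebpb*, *Cebpd*, *Nfkb1* and *Rela*. Other genes, such as *Il1a*, *Ctf1*, *Tnfrsf1a*, *Traf6*, *Nfkb2*, *S100a9*, *Retnlg*, *Elane*, *Camp*, *Clcf1*, *Lum*, *Ttr*, *Ly6g*, *Pdgfrb*, *Plin1*, *Lep* and *Alb*, were named after their values were seen. *Tf* of the list of negative acute phase genes is listed as *Trf*. A gene that the naming rule would include is not reported here. As alternatives, scaling was done by the upper quartile, by size factors of DESeq2 1.42.0, by library totals, and by totals that left out the 20 most abundant genes. The others were no filter on counts, 10 counts in both libraries, a prior count of 0.5, FPKM and TPM with a pseudocount of 1, the most abundant transcript alone, and removal of the GC content and length trends.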

Additional observations from a re-analysis of the deposited data

How the results depend on the processing

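*Saa4* was the 1 member past 2-fold under all 11 alternatives. *Saa1*, *Saa4* and *Orm1* stayed on the higher side and *Orm2* and *Orm3* on the lower in each of them. *Saa2* turned to the lower side under library totals, the upper quartile, FPKM and the most abundant transcript alone. *Hp*, *Lcn2*, *Saa3* and *Apcs* turned only when the trends with GC content and length were removed. The cause was not tested.

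The median log2 ratio of the members was -0.13. It was -0.18 under library totals and also with FPKM, -0.33 under the upper quartile, -0.21 with the most abundant transcript alone and 0.23 with the trends removed. The upper quartile moved the median of all genes from -0.02 to -0.22. The count of genes past 2-fold was 4908, against 1336 with FPKM, 2046 with TPM and 2248 with the trends removed. The pseudocount of 1 understates the ratios of low genes. The other causes were not tested. *Saa1* with *Saa2* summed ranged from 0.02 under the upper quartile to 0.67 with the trends removed, and the summed orosomucoids from 0.03 to 0.26. Of 440 further values for single members, summed paralogs and lists, 326 moved by less than their counting interval, or by at most 1.5 times for a count, and 114 moved by more. Of them all, 16 changed sign, 9 of these with the trends removed. Single listed genes past 2-fold also changed sign there, such as *F8* from 1.58 to -0.46 and *Tlr4* from 1.54 to -0.02.

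No paired analysis was possible because each group holds 1 library, and for the same reason no library was left out. At the 17 and 19 counts of *Tnf*, a log2 ratio of 0.38 is within counting error. The counting intervals of the abundant members are narrow, and replicates are missing for all of them.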
